A study of Mus musculus with 61 samples.

Results

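The 5 muscarinic acetylcholine receptor genes, Chrm1, Chrm2, Chrm3, Chrm4 and Chrm5, were followed through 61 fractions of the adult mouse brain. They are 5 of the 16358 genes that had a probe named through a RefSeq accession, and all 5 were found by that rule, with 6 of the 41174 non-control probes of the array. Chrm4 had a pair of probes and each of the others had 1; for Chrm4 the probe with the higher mean intensity stands for the gene, and its other probe is given beside it. The brains came from 6 male C57BL/6J mice of 8 weeks, wild type and untreated as far as the labels say. The mice had been perfused with RNAlater, which preserves RNA, and each whole brain was frozen and cut in 1 direction into slabs of 200 sections of 5 µm. The S and So series (9 and 10 fractions) ran from left to right, with the S fractions numbered here from 1 to 9, as the study numbers them, where the labels count from 2 to 10, the C and Co series (13 and 16) from posterior to anterior, and the H and Ho series (6 and 7) from dorsal to ventral, with the o series cut slightly obliquely. Each series is 1 mouse, so a plane has 2 mice, and 28 pairs of fractions matched between these mice by the study served as replicates; 5 fractions (So1, Co1, Co13, Co16 and Ho1) had no partner. The study chose the pairs by the likeness of their intensities over all probes, so the spread within pairs is that of fractions picked to be alike.

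Muscarinic receptors are G protein-coupled receptors for acetylcholine. Chrm1, Chrm3 and Chrm5 encode the M1, M3 and M5 subtypes, which couple to Gq proteins, phospholipase C and calcium release, whereas Chrm2 and Chrm4 encode M2 and M4, which couple to Gi proteins and lower cyclic AMP. M1 is known as the main subtype of the cortex and hippocampus, M4 as a receptor of striatal projection neurons, M2 as an autoreceptor of cholinergic terminals that also occurs in brainstem and thalamus, and M5 as a minor subtype of midbrain dopamine neurons.

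Values are intensities given as a percentage of the 75th percentile of all probes on the same array, and tests used their log2. A probe was called well above background by the scanner software, and dim values below that call have no order. The 75th percentile itself lay between 740 and 1971 intensity units, 161 to 852 times the negative control spots of the array. Between 57.9% and 73.1% of the probes of an array were well above background. Levels of different probes cannot be set against each other, so each receptor is compared with itself across the brain. The fractions held their labeled positions by the mean log2 level of marker lists. The mean of the 4 cerebellar markers (such as Gabra6 and Pcp2) peaked in C3 and Co5, and that of the 3 olfactory bulb markers (such as Doc2g) in C13 and Co15. That of the 6 striatal markers (such as Drd2) peaked in C9 and Co11, and that of the 5 neocortical markers (such as Tbr1) in C11, Co12, H1 and Ho1. The mean of the 4 markers of midbrain dopamine neurons peaked in C6 and Co7. Of these 4, Slc6a3 was highest over all fractions in C6, Pitx3 in S6, Th in Co15 and Foxa1 in Co8. Every fraction is a mixture of regions, and in such bulk RNA fewer cells of a type and less RNA per cell cannot be told apart. With 2 mice per plane, p-values measure the spread between matched fractions of these mice.

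Over the 28 pairs, 4 of the 5 receptors varied at an adjusted p under 0.05 (moderated F test of limma, Benjamini-Hochberg adjusted over 36573 probes), where 61.3% of all tested probes did. Chrm1 varied most, with F = 97.9 (adjusted p = 1.46e-19), which ranked 37 among all tested probes. Chrm3 had F = 16.2 (adjusted p = 3.83e-10), Chrm2 had F = 6.90 (adjusted p = 3.93e-06) and Chrm5 had F = 2.46 (adjusted p = 0.0175). The Chrm4 probe did not pass, with F = 0.965 (adjusted p = 0.602), but its other probe did, with F = 7.75 (adjusted p = 1.23e-06).

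Chrm1, the M1 receptor gene, was not well above background at the posterior coronal levels and was well above it in every other fraction of the 6 brains. In the C series it read 0.310%, 0.280%, 0.284% and 0.302% in C1 to C4, not well above background, and 4.74%, 7.14%, 7.28%, 6.46%, 6.86%, 8.78%, 9.03%, 4.62% and 2.77% from C5 to C13. In the Co series it was not well above background in Co1 to Co5, at 0.310% to 0.479%, and ran from 3.40% in Co6 through 9.51% in Co12 to 3.04% in Co16. The largest step between neighboring pairs was between C4/Co5 and C5/Co6, from fractions not well above background to 4.74% in mouse C and 3.40% in mouse Co. Both mice thus had their step at the same level and their peak in partner fractions, C11 and Co12.

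The 8 fractions at cerebral levels (C8 to C11 and Co9 to Co12) had 6.34%, 7.54% and 9.51% of the 75th percentile as lowest, median and highest value of Chrm1, against 0.280%, 0.310% and 0.479% in the 8 fractions at the levels of cerebellum, pons and medulla (C1 to C4 and Co2 to Co5). Chrm1 was at least 21.3-fold higher at cerebral levels, taking the lowest signal well above background as a bound for the dim fractions. The measured difference was 4.58 ± 0.11 on the log2 scale (SE, adjusted p = 2.72e-25), with 4.71 in mouse C and 4.45 in mouse Co. The groups did not overlap, as for 10.0% of all tested probes in this direction, and 20.8% of all tested probes were called higher. Just anterior to this step, the 4 fractions C5, C6, Co6 and Co7 read 3.40% to 7.14%, which overlapped the 6.34% to 7.28% of C7, C8, Co8 and Co9, while C3, C4, Co4 and Co5 were not well above background. Against these 8 neighbors together the measured difference was 1.85 ± 0.13 on the log2 scale (adjusted p = 1.24e-11), with 4 of the 8 dim, where 5.07% of all tested probes were called higher. At the olfactory bulb end (C13 and Co15) Chrm1 read 2.77% and 3.80%, below all 8 fractions at cerebral levels, and was 1.24 ± 0.17 lower on the log2 scale (adjusted p = 6.58e-07), where 17.8% of all tested probes were called lower and 17.6% did not overlap in that direction.

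**Figure D1:**
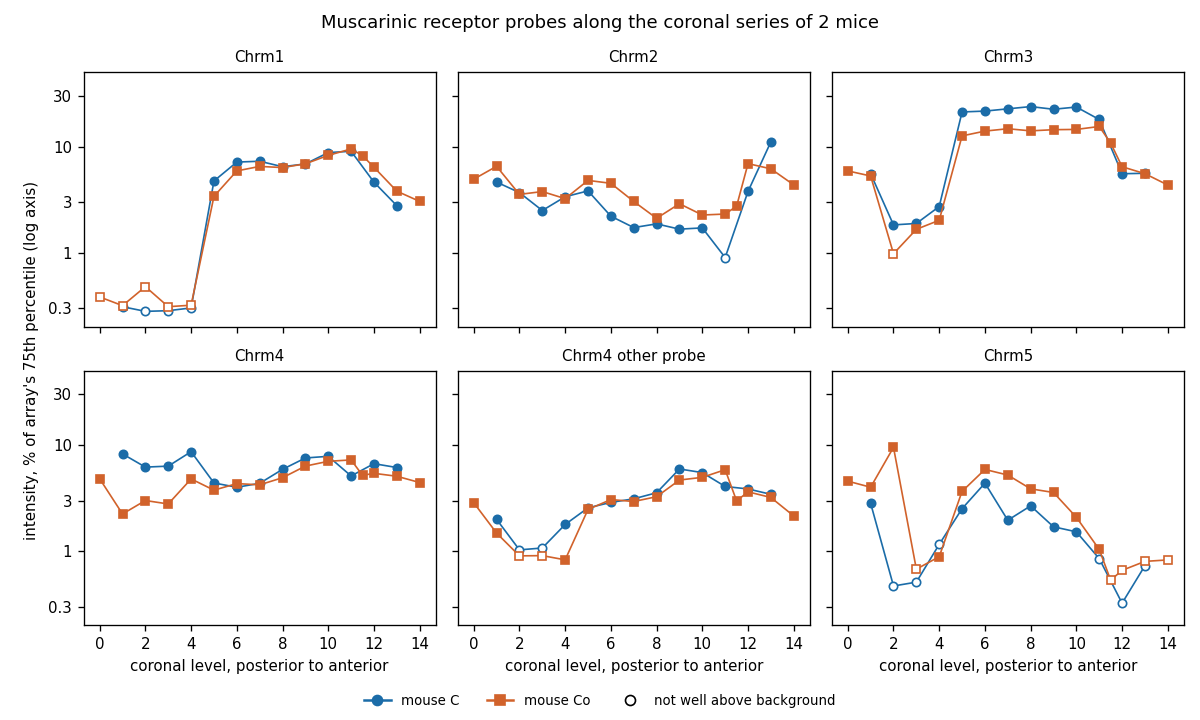
Intensity of each receptor probe (percent of the 75th percentile of the array, log axis) along the coronal series of mice C (blue circles) and Co (orange squares), placed by their pairs from posterior to anterior; fractions without partner stand between or beyond the pairs, and open symbols were not well above background. Chrm1 and Chrm3 stepped up between levels 4 and 5 in both mice, and Chrm2 was lowest in C11 and in Co9. Chrm5 had its maximum at level 6 apart from Co3, which read 9.54%, and the Chrm4 probes parted in C1 to C4.

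Across the sagittal series Chrm1 formed a trough at the midline. From S1 to S9 it read 9.07%, 6.00%, 4.27%, 2.75%, 2.27%, 2.34%, 3.86%, 5.16% and 8.12%, and in So1 to So10 it fell from 8.09% in So2 to 2.74% in So6. The 8 lateral fractions (S1, S2, S8, S9, So2, So3, So9 and So10) had a lowest value of 5.16%, a median of 6.46% and a highest of 9.07%, and the 6 medial ones (S4 to S6 and So5 to So7) had 2.27%, 2.74% and 3.51%. Every lateral fraction was above every medial one. The difference was 1.31 ± 0.12 on the log2 scale, a 2.48-fold one (adjusted p = 7.81e-10), with 1.502 in mouse S and 1.12 in mouse So, where 9.01% of all tested probes were called higher laterally and 4.48% did not overlap. Left and right fractions differed by 0.14 ± 0.11 (95% confidence interval -0.08 to 0.36, adjusted p = 0.870). Dorsally (H1, H2, Ho2 and Ho3) it read 4.49% to 7.39% and ventrally (H5, H6, Ho6 and Ho7) 3.89% to 5.35%, a difference of 0.40 ± 0.15 that did not pass (adjusted p = 0.0818) and passed with the mouse as a block (adjusted p = 0.0417).

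Chrm3, the M3 receptor gene, shared the posterior trough but not the medial one. In C1 to C4 it read 5.55%, 1.83%, 1.89% and 2.72%, rose to 21.2% in C5, stayed between 18.0% and 23.8% up to C11, and was 5.55% and 5.60% in C12 and C13. In mouse Co it read 5.28%, 0.979%, 1.66% and 2.02% in Co2 to Co5, then 12.6% to 15.5% from Co6 to Co12, and 6.46% and 5.55% in Co14 and Co15. Only Co3 was not well above background among the 61 fractions. The most posterior fractions C1, Co1 and Co2, at 5.28% to 5.90%, stood above the fractions next to them.

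At cerebral levels the lowest, median and highest values of Chrm3 were 14.1%, 16.7% and 23.8%, against 0.979%, 1.95% and 5.55% at the hindbrain levels, with no overlap. Chrm3 was 2.93 ± 0.19 higher on the log2 scale, or 7.62-fold (adjusted p = 2.05e-14), with 3.02 in mouse C and 2.84 in mouse Co. The 4 fractions C5, C6, Co6 and Co7, at 12.6% to 21.6%, overlapped their 8 neighbors, at 1.66% to 23.8%, and were 1.47 ± 0.23 above them together (adjusted p = 3.06e-05). Their pair means were 16.4% and 17.4%, against 1.77% and 2.35% posterior to them and 18.3% and 18.3% anterior to them. The measured difference thus lay against the posterior neighbors only. At the bulb end it was 1.68 ± 0.29 lower than at cerebral levels (adjusted p = 3.09e-05). From dorsal to ventral it read 19.2%, 22.6%, 15.6%, 11.6%, 10.5% and 6.16% in H1 to H6, and 16.2%, 15.0%, 10.8%, 11.0%, 9.47% and 5.91% in Ho2 to Ho7. The 4 dorsal fractions lay between 15.0% and 22.6% and the 4 ventral ones between 5.91% and 10.5%. Chrm3 was thus 1.21 ± 0.26 higher dorsally on the log2 scale (adjusted p = 0.00134), with 1.37 in mouse H and 1.06 in mouse Ho, where 5.81% of all tested probes were called higher and 11.0% did not overlap in that direction.

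In the sagittal series the profiles of Chrm3 in the 2 mice did not run together. Mouse S had its highest value, 19.7%, in S6 next to the midline, followed by 19.2% in S9, whereas mouse So fell from 36.7% in So1 and 25.9% in So2 to 11.8% in So10. The profiles of the partner fractions had r = -0.145 over 9 pairs, against 0.973 over the 13 coronal and 0.959 over the 6 horizontal pairs. Lateral and medial fractions differed by 0.29 ± 0.20 (adjusted p = 0.378).

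Chrm2, the M2 receptor gene, was higher where Chrm1 was lower in the coronal and sagittal planes. In the C series it read 4.63%, 3.69%, 2.499%, 3.37% and 3.83% in C1 to C5, 1.67% to 2.21% from C6 to C10, 0.901% in C11 where it was not well above background, 3.78% in C12 and 11.1% in C13. In the Co series it was well above background in all 16 fractions and read 6.52% in Co2, 2.11% in Co9, 6.91% in Co14 and 6.17% in Co15. The highest value was in C13 in mouse C, at the bulb end, and in Co14, next to the bulb end fraction Co15, in mouse Co, where Co2 at the hindbrain level lay above Co15.

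The 2 fractions at the bulb end, at 11.1% and 6.17%, were above all 8 at cerebral levels, at 0.901%, 1.99% and 2.90% as lowest, median and highest. Chrm2 was 2.14 ± 0.36 higher there on the log2 scale, or 4.41-fold (adjusted p = 1.56e-05), with 2.90 in mouse C and 1.38 in mouse Co, where 17.0% of all tested probes were called higher and 17.2% did not overlap in that direction. At the hindbrain levels it read 2.499%, 3.61% and 6.52% as lowest, median and highest. The cerebral levels were 1.00 ± 0.23 lower (adjusted p = 0.000413), with overlap of the groups, where 28.3% of all tested probes were called lower.

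Chrm2 was a medial signal in the sagittal plane. It read 1.23%, 0.811%, 1.59%, 2.87%, 3.52%, 2.75%, 2.40%, 1.14% and 0.547% from S1 to S9, and in mouse So it rose to 3.56% in So6 and fell to 0.477% in So10. None of the 8 lateral fractions was well above background, and all 6 medial ones were, at 2.15% to 3.56%. With dim values raised to the lowest signal well above background of their array where they lay below it, the lateral fractions were 2.97-fold lower. The measured difference was -1.61 ± 0.24 on the log2 scale (adjusted p = 8.52e-06), with -1.77 in mouse S and -1.45 in mouse So, where 10.6% of all tested probes were called lower. So2, at 2.41%, was the lateral fraction that overlapped the medial range. Dorsal and ventral fractions differed by 0.24 ± 0.32 (95% confidence interval -0.41 to 0.90, adjusted p = 0.780).

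**Figure D2:**
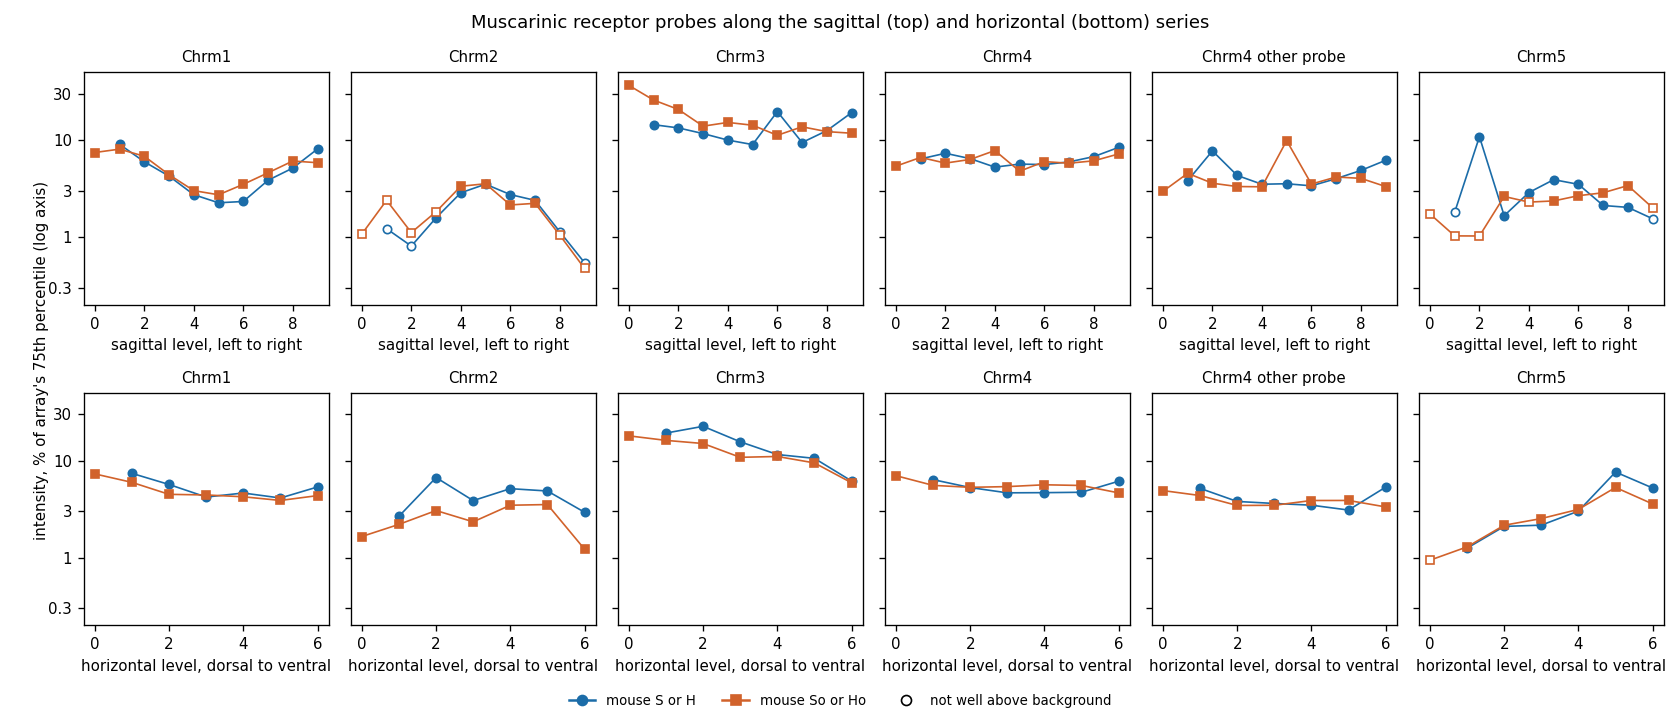
Intensity of each receptor probe (percent of the 75th percentile of the array, log axis) from left to right in mice S and So (top) and from dorsal to ventral in mice H and Ho (bottom), placed by their pairs; open symbols were not well above background. Chrm1 was lowest and Chrm2 highest at the midline, Chrm3 fell from dorsal to ventral, Chrm5 rose ventrally to 7.63% in H5 and 5.29% in Ho6, and S2 stood apart for Chrm5.

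Chrm5, the M5 receptor gene, was well above background in 42 of the 61 fractions, the fewest of the receptors. Along the C series it read 2.83%, 0.471%, 0.512%, 1.16%, 2.52%, 4.38%, 1.96%, 2.68%, 1.70%, 1.53%, 0.853%, 0.324% and 0.732%, of which C2 to C4 and C11 to C13 were not well above background. In the Co series it read 4.58%, 4.01% and 9.54% in Co1 to Co3, 0.679% and 0.889% in Co4 and Co5, then 3.67%, 5.90% and 5.23% in Co6 to Co8, and declined to 0.535% in Co13. Apart from Co3, both mice had their maximum at the level of the midbrain, in the partner fractions C6 and Co7. The mean of the 4 markers of midbrain dopamine neurons peaked in the same fractions. Of these markers, Slc6a3 and Pitx3 were called higher at the midbrain level, as were 5.07% of all tested probes. Th and Foxa1 were not. Other lists peaked there too: the mean of the 2 vascular smooth muscle markers in C6 and Co7, and that of the 3 hippocampal markers in C6 and Co8. Of the hippocampal markers, Spink8 (limma, adjusted p = 0.0194) and Fibcd1 (adjusted p = 5.54e-06) were called higher at the midbrain level, and Tdo2 was not.

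The 4 fractions at the midbrain level (C5, C6, Co6 and Co7) held 2.52% to 5.90% of Chrm5. The 8 on either side of them (C3, C4, C7, C8 and their partners) held 0.512% to 5.23%, with C3, C4 and Co4 not well above background. Pair means were 3.04% and 5.09% at the midbrain level, 0.589% and 1.02% posterior to it, and 3.20% and 3.22% anterior to it. The anterior neighbors alone were not tested. Against all 8 together, the difference was 1.32 ± 0.50 on the log2 scale, with 1.32 in both mice. It did not pass (adjusted p = 0.0999), where 5.07% of all tested probes were called higher. It passed with the mouse as a block (adjusted p = 0.0409) and without S2, So6 and Co3, fractions left out after seeing the data (adjusted p = 0.000595). That last fit left the estimate at 1.32, and leaving out these fractions narrows the spread by itself, so it adds no support. From dorsal to ventral, Chrm5 read 1.25%, 2.10%, 2.16%, 3.02%, 7.63% and 5.22% in H1 to H6, and 1.29%, 2.16%, 2.53%, 3.15%, 5.29% and 3.57% in Ho2 to Ho7. The 4 dorsal fractions, at most 2.16%, lay below the 4 ventral ones, at least 3.57%. The difference was -1.67 ± 0.58 on the log2 scale (adjusted p = 0.0494), with -1.96 in mouse H and -1.38 in mouse Ho, where 8.47% of all tested probes were called lower dorsally and 11.0% did not overlap. This call lay at the threshold and was lost in 52 of the 62 fits that left out 1 array or 1 mouse, with an adjusted p of 0.586 without mouse H. The 5 neighbors in the order of horizontal pairs were all separate, that is, the fractions of one pair did not overlap those of the next. The share of all tested probes for which this holds was not computed, so no support for the dorsal call is drawn from it.

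A pair of fractions weighed on the spread of Chrm5. S2 read 10.9% while its partner So3 read 1.03% and was not well above background, and Co3 read 9.54% while its partner C2 read 0.471%. S2, So6 and Co3 were left out after seeing the data, S2 and Co3 apart from their partners for Chrm5 itself and So6 apart on the other Chrm4 probe. Leaving out such fractions narrows the spread within pairs by itself, so the lower adjusted p-values that follow are no support. Without S2, So6 and Co3 the adjusted p of Chrm5 over the pairs was 1.48e-07, it was 0.95 higher at cerebral than at hindbrain levels on the log2 scale (adjusted p = 0.000564, against 0.41 and 0.431 with all fractions), and 0.97 lower laterally (adjusted p = 0.00604, against -0.43 and 0.617). At the bulb end neither fraction was well above background, at 0.732% and 0.803%. The measured level of Chrm5 there was 2.49-fold lower than at cerebral levels, which did not pass (adjusted p = 0.119). Without S2, So6 and Co3 the adjusted p was 0.00181, while the estimate stayed at -1.32 on the log2 scale. S2 and Co3 did not hold the highest value of their series for Chrm1, Chrm2 or Chrm3, but S2 also read 7.77% on the other Chrm4 probe, the highest of its series. What set them apart was not tested.

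Chrm4, the M4 receptor gene, gave 2 accounts, 1 for each probe, although both carry the same transcript accession. On the probe with the higher mean intensity, well above background in all 61 fractions, the C series read 8.27%, 6.21%, 6.34% and 8.68% in C1 to C4, 4.01% to 5.91% in C5 to C8, 7.57% and 7.85% in C9 and C10, and 5.12% to 6.69% in C11 to C13. The Co series read 2.25%, 3.01%, 2.79% and 4.80% in Co2 to Co5 and rose to 7.26% in Co12. On the other probe, the same fractions read 2.00%, 1.03%, 1.07% and 1.79% in C1 to C4 and 1.48%, 0.905%, 0.910% and 0.831% in Co2 to Co5. The probes thus disagreed at the hindbrain levels, most of all in mouse C. C1 to C4 shared a slide that held no other fraction, so in mouse C slide and level cannot be told apart for them.

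At cerebral levels the first Chrm4 probe was 0.44 ± 0.19 higher than at hindbrain levels (adjusted p = 0.0561, and 0.0240 with the mouse as a block), with -0.16 in mouse C and 1.04 in mouse Co, and the other probe was 1.96 ± 0.18 higher (adjusted p = 5.41e-11), with 1.73 and 2.20. The difference between the probes itself was tested as a row of the same fit. It varied over the pairs (F = 4.52, adjusted p = 0.000203) and was -1.53 ± 0.19 between these levels (adjusted p = 7.18e-08). The log2 values of the probes correlated with r = 0.950 in H, 0.880 in Ho, 0.865 in S and 0.772 in Co, but with -0.0262 in C and -0.581 in So, each over the fractions of 1 mouse. In So the correlation included So6, which read 9.91% on the other probe and 4.79% on the first.

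Among the coronal pairs, the highest mean of Chrm4 was at striatal levels on both probes, in C10/Co11 on the first and C9/Co10 on the other. By single series, the first probe was highest in C4 and Co12, and the other in C9 and Co12. The 4 fractions C9, C10, Co10 and Co11 read 6.35% to 7.85% on the first probe against 4.23% to 5.91% in C7, C8, Co8 and Co9, and 4.69% to 5.96% against 2.94% to 3.56% on the other. Neither pair of groups overlapped, as for 3.72% of all tested probes in this direction. The differences were 0.58 ± 0.27 (adjusted p = 0.455) and 0.71 ± 0.25 on the log2 scale (adjusted p = 0.184), with both mice in the same direction, and did not pass, where 1.16% of all tested probes were called higher. The first probe differed by 0.10 ± 0.27 from dorsal to ventral (95% confidence interval -0.44 to 0.65) and by 0.23 ± 0.20 from lateral to medial (-0.19 to 0.65).

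**Figure D3:**
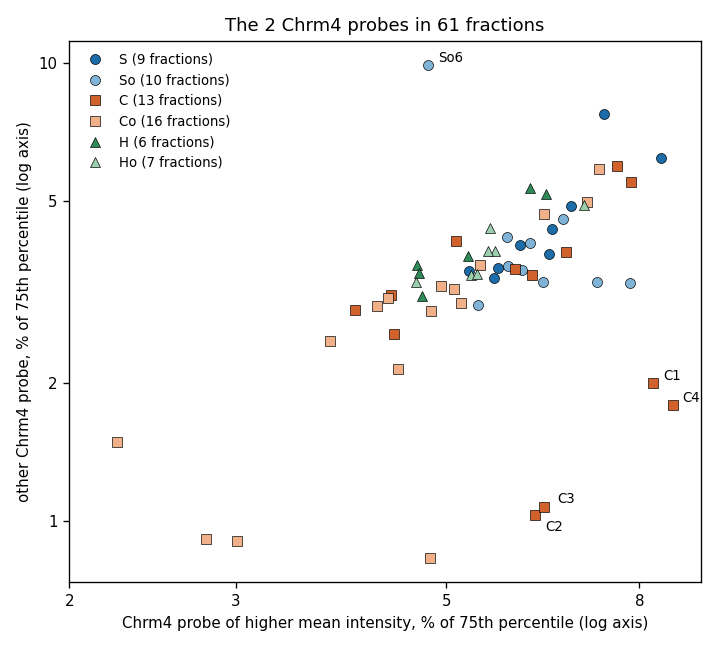
Intensity of the other Chrm4 probe against that of the Chrm4 probe with the higher mean (percent of the 75th percentile of the array, both axes log), 1 point per fraction, 61 in all, colored by series. C1 to C4 lie far to the right of the other fractions of like height, and So6 lies above them at 9.91%.

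The receptors were set against each other as differences of their log2 values on each array, in which the scaling of the array cancels; 10 such differences were tested. Over the 28 pairs, 9 of them varied at an adjusted p under 0.05. No such share was computed for differences between other probes, and 61.3% of all tested single probes varied. The count is therefore not read as particular to the receptors. Chrm1 and Chrm2 differed most (F = 33.6, adjusted p = 8.81e-14), and Chrm4 against Chrm5 missed (F = 2.03, adjusted p = 0.05001, and 0.0051 with the mouse as a block). The difference between cerebral and hindbrain levels was 3.93 ± 0.28 larger for Chrm3 than for Chrm2 (adjusted p = 4.27e-13). It was also called larger for Chrm1 than for Chrm3 (adjusted p = 3.68e-08), but since all 8 hindbrain fractions of Chrm1 were dim, no size is given. Laterally, Chrm1 was raised by 1.02 ± 0.22 more than Chrm3 (adjusted p = 0.000798). Chrm1 and Chrm2 differed there as well (adjusted p = 1.14e-09), with no size given because the 8 lateral fractions of Chrm2 were dim. At the bulb end, the drop did not differ between Chrm1 and Chrm3 by the test (0.44 ± 0.32, adjusted p = 0.331). From dorsal to ventral, Chrm3 and Chrm5 went opposite ways, with a difference of 2.88 ± 0.75 (adjusted p = 0.00736), and that between Chrm1 and Chrm5 was 2.07 ± 0.56 (adjusted p = 0.00963).

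**Figure D4:**
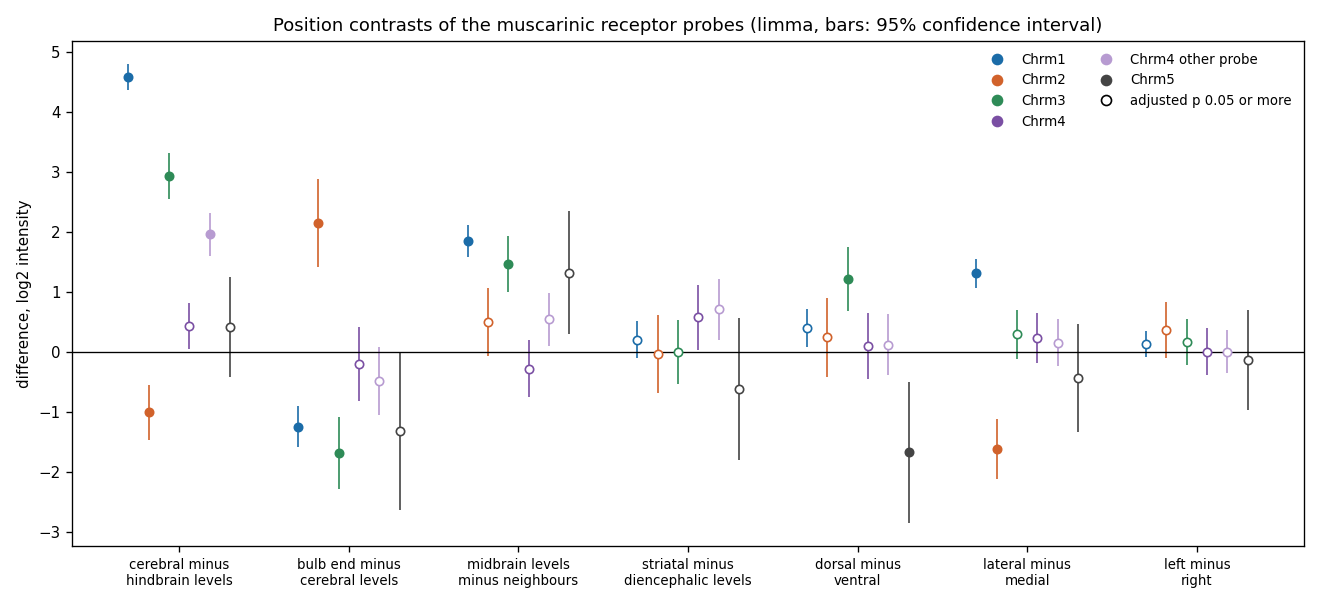
Difference of log2 intensity in the 7 position contrasts for the 6 receptor probes, with 95% confidence intervals from limma over 56 arrays; filled points had an adjusted p under 0.05. Chrm1 stood highest in the cerebral contrast at 4.58, Chrm2 was the receptor called higher at the bulb end, at 2.14, and no probe was called between left and right.

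No receptor was called between the left and the right fractions (limma, Benjamini-Hochberg adjusted), where 0.153% of all tested probes were. At an unadjusted p under 0.05 there was none either, with p from 0.118 for Chrm2 to 0.971 for Chrm4. The sides were not alike in tissue, since 4 of the 5 hypothalamic markers were called lower on the left. These ran from -2.33 for Oxt to -3.06 for Pmch on the log2 scale. The test therefore does not compare mirror-image hemispheres. Over all tested probes, the median difference between cerebral and hindbrain levels was -0.11 on the log2 scale, and that of the 5 receptors was 0.44. Scaling to the median of each array moved the former to 0.01 and the median from lateral to medial from -0.0047 to 0.10, and raised the share of called probes that were higher from 42.3% to 56.2% at cerebral levels, from 52.8% to 64.2% at the midbrain level, from 40.7% to 55.6% dorsally, from 46.0% to 68.3% laterally and from 26.8% to 44.8% on the left.

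Matched fractions of the 2 mice of a plane were also compared, with the pairs in the model. In the coronal plane Chrm2 was 0.45 ± 0.13 higher (adjusted p = 0.00478) and Chrm5 0.83 ± 0.29 higher in Co than in C (adjusted p = 0.0183), and Chrm3 was 0.44 ± 0.12 lower (adjusted p = 0.00247) and Chrm4 0.45 ± 0.13 lower (adjusted p = 0.00423), where 53.4% of all tested probes were called. For Chrm3 this was visible from C5 to C11, at 18.0% to 23.8%, against 12.6% to 15.5% in Co6 to Co12. In the horizontal plane Chrm2 was 0.74 ± 0.19 lower in Ho than in H (adjusted p = 0.0221), where 5.52% of all tested probes were called, and in the sagittal plane no receptor was called, where 29.9% were. Chrm1 differed in none of the planes (adjusted p from 0.376 to 0.455). The difference between the mice was itself unlike between the planes for Chrm2 (adjusted p = 0.000436) and Chrm3 (adjusted p = 0.0110), where 55.4% of all tested probes passed this test. Each mouse had its own cutting angle, C and Co were scanned on different days and all but 1 of the S fractions on another day than So, so that mouse, angle and, in these planes, scan day cannot be told apart; H and Ho were scanned on the same day.

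The other genes of the pathway were followed as lists. Among 7 genes of acetylcholine supply and breakdown, 6 were tested: Chat, which makes acetylcholine, its vesicular transporter Slc18a3, the choline transporter Slc5a7, the cholinesterases Ache and Bche, and Prima1, which anchors Ache at membranes. Between striatal and diencephalic levels 3 of them rose, where 1.16% of all tested probes did, and none fell, Slc5a7 by 1.82 (adjusted p = 0.00127), Slc18a3 by 1.54 (adjusted p = 0.00154) and Chat by 1.30 on the log2 scale (adjusted p = 0.000883). At the bulb end 4 of 6 fell (17.8% of all tested probes), with Slc5a7 lowest at -3.93 (adjusted p = 1.13e-09), and dorsally 5 of 6 fell (8.47% of all tested probes), led by Slc5a7 with -4.67 (adjusted p = 3.76e-11). At cerebral levels 3 fell (28.3% of all tested probes), Slc18a3 (-0.97, adjusted p = 0.000247), Prima1 (-0.70, adjusted p = 0.000224) and Ache (-0.54, adjusted p = 0.000910), and Chat was at 0.31 (adjusted p = 0.131); the median of the list was -0.55 on the log2 scale. Chrm2 shared with this list the lower lateral level, where 5 of 6 were lower (10.6% of all tested probes), but not the low level at the bulb end.

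Of the 13 genes of Gq coupling and phospholipase C, 7 rose and 6 fell at cerebral against hindbrain levels, where 20.8% of all tested probes rose and 28.3% fell, between Prkcb, a protein kinase C, at 1.75 (adjusted p = 5.23e-14) and the phospholipase Plcb4 at -1.82 (adjusted p = 1.47e-05), with a list median of 0.27. The list of 13 genes of Gi coupling and adenylyl cyclases also holds Gnal, which encodes a stimulatory G protein subunit rather than a Gi one. In this contrast 7 of the 13 rose, Gnal among them at 0.85 (adjusted p = 1.09e-05), and 5 fell. The list median was 0.36, from Adcy5 at 2.05 (adjusted p = 1.26e-15) to Adcy8 at -0.88 (adjusted p = 7.99e-11). Adcy5, the striatal adenylyl cyclase, was also the member called higher at striatal levels, at 1.38 (adjusted p = 2.44e-06), the levels with the highest pair mean of Chrm4.

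Of the 7 potassium channel genes gated through muscarinic receptors, 5 rose at cerebral levels, where 20.8% of all tested probes did, none fell, and the median was 0.45. The M-current subunit Kcnq5 rose by 3.92 (adjusted p = 1.78e-16), while the GIRK subunit Kcnj3 was at -0.01 (adjusted p = 0.948). Laterally 5 rose as well (9.01% of all tested probes) and none fell, and at the bulb end 5 fell (17.8%). Kcnj5 was well above background in 2 fractions only. Of the 7 receptor kinases and arrestins, 2 rose, led by Grk6 at 0.70 (adjusted p = 9.38e-10), and 1 fell, Grk4 at -0.52 (adjusted p = 0.00551), with a median of 0.04, where 20.8% of all tested probes rose and 28.3% fell. This count of called members moved with the mouse as a block.

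As a description, the profiles of the receptors over all 61 fractions were compared, each mouse centered on its own mean. Chrm1 and Chrm3 had r = 0.811, Chrm1 and Chrm2 -0.400, and Chrm3 and Chrm2 -0.284. Chrm5 was between -0.275 and 0.162 with each of the other receptors. Fractions of 1 mouse share that animal and neighboring tissue, so these values carry no test.

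Among 13012 other genes measured in at least 31 fractions, the profiles most like that of Chrm1 were those of Tmem121b (r = 0.985), Rin1, a Ras effector (0.980), Pde2a, a cyclic nucleotide phosphodiesterase (0.978), Shisa7 (0.977) and Ctxn1 (0.976), and 20.8% of these genes had r over 0.5 with Chrm1. For Chrm3 they were Lrrtm1, a synaptic adhesion protein (0.932), Bend5 (0.928), Tmem200a (0.922), Ovol2 (0.921) and Syt16 (0.918), with 18.5% over 0.5. For Chrm2 they were Acan, the aggrecan of perineuronal nets (0.819), Rassf4 (0.813), the coactivator Ppargc1a (0.786), Pcdhb22 (0.773) and Bhlhe41 (0.769), with 5.84% over 0.5. For Chrm5 they were Ndn (0.741), the neurokinin receptor Tacr3 (0.727), the receptor guanylyl cyclase Gucy2c (0.725), Slc27a3 (0.719) and the lysosomal glucosidase Gaa (0.712), with 2.73% over 0.5. The first Chrm4 probe had no close partner, with Cep57l1 highest at 0.658 and 0.246% over 0.5, whereas its other probe was led by Cpne5 (0.866) and Melk (0.842), with 15.5% over 0.5. The choice rests on the centering: without it, 4 of these 5 genes were again among the top 5 for Chrm1, 3 for Chrm3, 2 for Chrm2, 1 for Chrm5, 0 for the first Chrm4 probe and 4 for its other probe, and r was 0.310 for Pcdhb22 and 0.231 for Bhlhe41 with Chrm2 and 0.165 for Cep57l1 with Chrm4.

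Against the summed markers, Chrm1 and Chrm3 followed the neocortical list (r = 0.953 and 0.908) and ran against those of cerebellum (-0.793 and -0.689), pons and medulla (-0.809 and -0.625) and astrocytes (-0.804 and -0.800). Chrm2 had its highest values with astrocytes (0.395), pons and medulla (0.390) and meninges (0.378). Chrm5 had its highest value with oligodendrocytes (0.518), followed by hippocampus (0.413), thalamus (0.385) and midbrain dopamine neurons (0.312). All 4 oligodendrocyte markers fell dorsally and laterally, as Chrm5 and Chrm2 respectively did, and all 3 astrocyte and both meningeal markers rose at the bulb end, where Chrm2 was called higher; of all tested probes, 8.47% fell dorsally, 10.6% fell laterally and 17.0% rose at the bulb end. The mean log2 level of the oligodendrocyte markers was 1.61 to 3.50 dorsally and 3.63 to 3.97 ventrally, and 2.07 to 3.45 laterally and 3.85 to 4.24 medially. That of the astrocyte markers was 1.74 to 1.89 at the bulb end and 0.32 to 1.02 at cerebral levels. Each of these 9 markers, the meningeal ones included, was well above background in all 61 fractions. Other lists ran the same way: all 4 dopamine neuron, all 5 hypothalamic and all 3 olfactory bulb markers fell dorsally and laterally. All 3 olfactory bulb markers also rose at the bulb end. Going the other way from Chrm2, 3 of the 4 oligodendrocyte markers fell at the bulb end, where 17.8% of all tested probes did. Laterally only 1 of the 3 astrocyte markers fell. The part of these regions and cell types in the profiles was not tested.

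**Figure D5:**
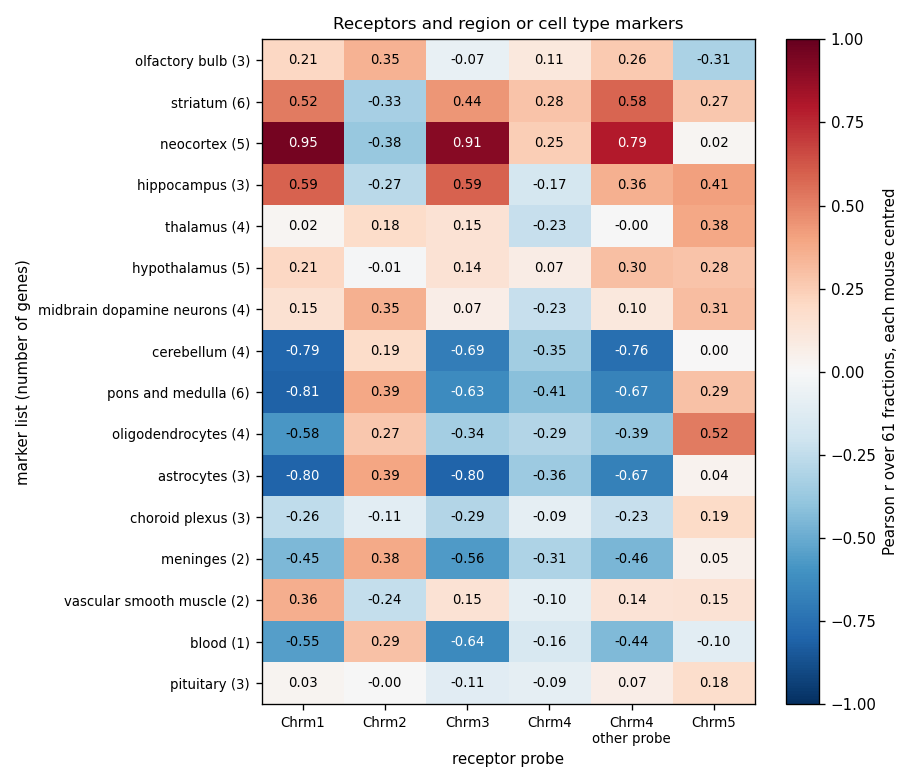
Pearson r between each receptor probe and the mean log2 intensity of each list of region or cell type markers over 61 fractions, each mouse centered on its own mean (color from -1, blue, to 1, red). Chrm1 and Chrm3 reach 0.95 and 0.91 with neocortical markers, and the first Chrm4 probe stays between -0.41 and 0.28.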

How the data were processed

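Total RNA of each of the 61 brain fractions of 6 mice was hybridized to 1 single-color Agilent whole mouse genome array; the files name another design number of this array than the methods do. The authors deposited the intensity of every spot as Feature Extraction 9.1.3.1 gives it, background-subtracted and not normalized between arrays, and a table of linear intensities normalized per array in GeneSpring GX, whose 61 columns each matched their own array. Here, log2 intensities were averaged over the spots of a probe without spots flagged as outliers, and the 75th percentile of each array was subtracted. The 36573 probes well above background on at least 1 array were tested. Names came from RefSeq accessions (GRCm38.p6 table), matched for 22951 of 41174 probes. A gene was represented by its probe with the highest mean signal.

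limma 3.58.1 in R 4.3.3 (lmFit, eBayes) was run on the 56 paired arrays with the 28 pairs as levels (27 numerator, 28 residual and 1.88 prior degrees of freedom); the methods name a one-way ANOVA over the same pairs. Position contrasts, receptor differences and mouse differences were moderated tests with Benjamini-Hochberg adjustment over all tested probes. The number of mice limits the precision. The fits were also run on simulated data with noise independent between arrays, which does not hold the shared deviations given next. Partner fractions of 1 mouse deviated together: the deviations from pair means had a median r of 0.278 over 129 combinations within a mouse, of which 115 were above 0.1, and -0.0255 over 249 between mice. The mouse therefore served as replicate block in an alternative. normexp used the median spot signal with an offset of 50, since the files give no mean. The other alternatives were median scaling, the authors' table, filters, slide (16 slides) or scan day (5 days) as block, other pairs, single planes, no moderation and fits without each array or each mouse. The receptors, gene lists and rules were chosen with earlier results of these data known. Named genes are the receptors, the 5 genes with the most similar profile for each, and in each pathway list the members with the lowest and highest difference between cerebral and hindbrain levels and those needed to read a count. Colq had no probe named through RefSeq, and 1 gene first listed as a neocortical marker is not reported here and was left out of that list.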

Additional observations from a re-analysis of the deposited data

Results flagged for a closer look

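In the S series, Chrm5 was highest in S2, at 10.9% of the 75th percentile of the array against 3.92% in the next fraction, a gap that made up 0.523 of the range of the 9 fractions on the log2 scale, above Dixon's limit for that number. On the other Chrm4 probe, So6 read 9.91% against 4.56% in the next fraction, a gap of 0.644 of the log2 range of 10 fractions, above the limit as well. The rule was applied to 24 groups, the 6 probes in S, So, H and Ho, and chance alone marks about 5% of groups.

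The difference between the mice was not the same in the 3 planes for Chrm2 (adjusted p = 0.000436, moderated F test of limma over the planes), which was higher in Co than in C by 0.45 and lower in Ho than in H by 0.74, and for Chrm3 (adjusted p = 0.0110), with 0.22 in the sagittal, -0.44 in the coronal and -0.28 in the horizontal plane.

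The 5 fractions without partner entered no test, and in them Chrm1 and Chrm2 were each well above background in 4, Chrm3, Chrm4 and the other Chrm4 probe in 5, and Chrm5 in 1. Chrm3 reached 36.7% in So1, its highest value in the 61 fractions, and Chrm5 was well above background in Co1, at 4.58%.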

How the results depend on the processing

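The range of signals, from 740 to 1971 intensity units at the 75th percentile, and the dim level of Chrm5 and Chrm2, below the background call in 19 and 11 fractions, limit what the arrays resolve, as does the number of mice, 2 per plane. The results for Chrm1, Chrm2 and Chrm3 at cerebral against hindbrain levels and from lateral to medial, and for Chrm2 at the bulb end, kept direction and side of the threshold under every alternative fitted. No called result changed direction. With each array floored at its lowest signal well above background, none of the 40 receptor results changed.

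Chrm4 at cerebral against hindbrain levels passed with scaling to the median (0.56 on the log2 scale, adjusted p = 0.0119), with the authors' table (0.56, 0.0118), with normexp and quantile normalization (0.30, 0.00236), when the fit was limited to the 22323 probes detected everywhere (0.44, 0.0424), and with scan day as block (0.44, 0.0230). With the mouse as replicate block it passed as well (0.44, 0.0240), as did Chrm5 at the midbrain level (1.32, 0.0409) and Chrm1 dorsally (0.40, 0.0417); these 2 also passed with scan day as block (1.32, 0.0391 and 0.40, 0.0383), and Chrm1 with the horizontal pairs alone (0.40, 0.0459). Chrm5 at the midbrain level passed with slide as random block (1.45, 0.0323). The dorsal call of Chrm5 was lost with median scaling (-1.595, 0.0619), the authors' table (-1.594, 0.0620), no filter on dim probes (-1.67, 0.0550), no moderation (-1.67, 0.0574), slide as block (-1.80, 0.107) and pairs by their own number (-1.92).

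The variation of Chrm5 over the pairs was lost with normexp and quantile normalization (adjusted p = 0.128), with pairs by their own number (0.308) and with the coronal (0.0673) or sagittal pairs alone (1.0). Chrm1 (0.108) and Chrm2 (0.412) were not called over the 6 horizontal pairs alone, nor Chrm3 (0.889) over the 9 sagittal pairs. Pairing fractions by their own number, which sets unlike levels side by side, lost Chrm1 (-0.62) and Chrm3 (-1.19) at the bulb end, Chrm1 (0.74) and Chrm3 (0.90) at the midbrain level and Chrm3 dorsally (1.05).

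With the other Chrm4 probe, the variation (adjusted p = 1.23e-06) and the cerebral difference (1.96) were called, the coronal difference between the mice was not (-0.18, over all planes adjusted p = 0.589), Chrm4 against Chrm5 was called over the pairs (0.00989), at cerebral levels (1.55) and dorsally (1.79), and Chrm1 against Chrm4 at the bulb end was not (-0.76). Chrm4 against Chrm5 over the pairs also passed with the authors' table (0.049) and with the replicate block (0.0051). The replicate block further brought in, at the midbrain level, Chrm2 against Chrm3 (-0.97) and Chrm4 (0.78) and Chrm4 against Chrm5 (-1.60), and dorsally Chrm1 against Chrm3 (-0.82), Chrm2 against Chrm3 (-0.97) and Chrm4 against Chrm5 (1.77); it changed no other call of the receptors. Of the 40 counts of called pathway genes (5 lists), 11 moved by over 1.5 times with the replicate block, 13 with scan day, 19 with pairs by their own number and 12 with the 22323 probes alone; among them, the 3 called acetylcholine supply genes at striatal levels became 0 in both of the latter settings, in the last because these genes are not among those probes. Of the differences between mice, slide as block lost Chrm2 (0.39) and Chrm5 (0.815) in the coronal and Chrm2 (-0.66) in the horizontal plane, and Chrm4 over all planes (0.113); normexp and quantile normalization brought in Chrm1 in the sagittal plane (0.14) and over all planes (0.0449).

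Leaving out S2, So6 and Co3, a choice made after seeing the data, brought in Chrm5 at cerebral levels (0.95), at the bulb end (-1.32), at the midbrain level (1.32) and laterally (-0.97). Because S2 and Co3 stood apart from their partners for Chrm5 itself, these calls are no support. Leaving out each array or mouse in turn gave these ranges on the log2 scale: Chrm5 dorsally -1.96 to -1.38, at the midbrain level 1.14 to 1.496, at the bulb end -1.55 to -1.09 and at cerebral levels -0.13 to 0.95; Chrm4 at cerebral levels -0.16 (without mouse Co) to 1.04 (without mouse C, adjusted p = 3.71e-06) and at the midbrain level -0.55 to -0.016; Chrm1 dorsally 0.31 to 0.48; and Chrm3 dorsally 1.06 to 1.37, lost without mouse H only (adjusted p = 0.164). The adjusted p of the variation ranged from 0.000615 (without mouse C) to 0.947 for Chrm4 and from 0.000111 (without C2) to 0.147 (without mouse H) for Chrm5. The cause of these changes was not tested.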

Other observations

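The measured difference of Chrm3 between left and right had opposite signs in mice S and So. In mouse So, Chrm3 read 25.9% and 20.8% in So2 and So3 on the left and 12.3% and 11.8% in So9 and So10 on the right, and in mouse S it read 14.5% and 13.4% in S1 and S2 and 12.5% and 19.2% in S8 and S9. Left fractions exceeded right ones by 0.59 on the log2 scale in mouse So and fell short of them by 0.25 in mouse S; whether the mice differ in this was not tested. The mean over both mice, 0.17 ± 0.19, was not called (adjusted p = 0.931, limma).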
